A study of Mus musculus with 10 samples.

Results

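The PGC-1 coactivators and the transcription factors of mitochondrial biogenesis were examined in the cerebral cortex of mice lacking *Crtc1*, a coactivator of the transcription factor CREB. The set was defined by name as *Ppargc1a*, *Ppargc1b*, *Esrra*, *Esrrb*, *Esrrg*, *Tfam*, *Nrf1* and *Gabpa*, and every probe set annotated to 1 of these genes and to no other was taken. This gave 22 of 45037 probe sets, for 8 of 18193 measured genes. RNA came from 5 *Crtc1*-/- and 5 WT littermate mice, all adult females of 2 months on the C57BL/6N strain, untreated and with 1 cortex sample per array. The *Crtc1*-/- mice carried the knockout and the WT mice the wild-type alleles, and the labels limit the deletion to no cell type. The values were log2 intensities from GeneChip Mouse Genome arrays (Affymetrix), on which a probe set reads 1 stretch of a transcript, mostly near its 3′ end. Because probe sets differ in how strongly they bind, the values of 1 probe set were compared between mice and not with those of another probe set. *Ppargc1a* is known from liver and cultured cells as a target of CREB and its CRTC coactivators, and the comparison shows its level and that of its partners where CRTC1 is missing.

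PGC-1α and PGC-1β, the products of *Ppargc1a* and *Ppargc1b*, bind no DNA themselves but are drawn to promoters by other factors. Among these are the estrogen-related receptors (ERRα, ERRβ and ERRγ, from *Esrra*, *Esrrb* and *Esrrg*), the nuclear respiratory factor NRF1, and GABPA, the DNA-binding subunit of GABP. NRF1 and GABP drive nuclear genes of the respiratory chain and are described as activators of *Tfam*, whose product packs mitochondrial DNA and starts its transcription. In the cortex PGC-1α is known as abundant in interneurons that make parvalbumin, where it is needed for genes such as *Pvalb* and *Syt2*.

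The promoter windows below were picked because each holds a match to letters that CREB, NRF1 or GABPA is known to bind. Whether the factors act there was not tested. They come from RefSeq on GRCm38.p6 and run from 250 bases before to 50 bases after a transcription start, 5′ to 3′ on the gene's strand. Capitals mark a motif match: the CREB core TGACG in *Ppargc1a* (chr5:51567676-51567975, minus strand, found on the opposite strand as CGTCA, 49 bases before the start), the NRF1 core GCGCANGCG in *Esrra* (chr19:6921759-6922058, minus strand, 141 bases before the start) and the ETS site CCGGAAG that GABPA binds in *Tfam* (chr10:71237995-71238294, minus strand, 47 bases before the start).
Ppargc1a: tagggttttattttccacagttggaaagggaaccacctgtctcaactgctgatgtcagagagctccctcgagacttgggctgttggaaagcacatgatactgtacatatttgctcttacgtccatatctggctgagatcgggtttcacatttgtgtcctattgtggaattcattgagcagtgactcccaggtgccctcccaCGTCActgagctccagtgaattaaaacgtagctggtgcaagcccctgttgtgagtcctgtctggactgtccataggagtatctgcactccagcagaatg
Esrra: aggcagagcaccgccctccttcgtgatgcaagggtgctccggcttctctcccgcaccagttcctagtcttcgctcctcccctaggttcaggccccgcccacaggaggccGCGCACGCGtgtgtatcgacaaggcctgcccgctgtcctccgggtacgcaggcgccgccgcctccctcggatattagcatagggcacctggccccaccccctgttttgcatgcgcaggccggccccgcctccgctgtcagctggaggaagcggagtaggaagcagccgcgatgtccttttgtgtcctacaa
Tfam: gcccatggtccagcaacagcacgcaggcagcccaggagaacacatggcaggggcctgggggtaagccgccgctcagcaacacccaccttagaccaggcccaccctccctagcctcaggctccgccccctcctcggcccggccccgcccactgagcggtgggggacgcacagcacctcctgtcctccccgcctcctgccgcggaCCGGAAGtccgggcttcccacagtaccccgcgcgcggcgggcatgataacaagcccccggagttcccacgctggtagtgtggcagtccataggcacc
Of the 12 windows of 7 members, searched on both strands, 2 held the CREB core TGACG (*Ppargc1a* and *Esrrb*), against 20.8% of 32851 windows of the same length. The full CREB site TGACGTCA, which contains the core, was in 0 of the 12 and in 1.79% of all windows, and the ERR element TNAAGGTCA in 0 and in 1.28%. The NRF1 core was in 1 (*Esrra*) against 6.25% of all windows, and the ETS site in 2 (*Tfam* and *Gabpa*) against 8.86%. These are matches of letters, and a window without a match says nothing of the factor elsewhere in the gene.

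The arrays were alike in scale. The medians of the 10 arrays spanned 0.0322 log2 units, and any pair of arrays correlated at 0.994 or above across probe sets. *Crtc1* itself lay between 5.96 and 6.60 in *Crtc1*-/- mice on its brightest probe set, 1434476_at, and between 9.51 and 9.86 in WT mice. The log2 fold change there was −3.32 (adjusted p = 2.13e-07 from limma). On 1458443_at and 1446533_at it was −1.78 and −0.03 (adjusted p = 1.36e-05 and 0.963 from limma). The place of the probes relative to the deleted part was not given in the sources used here. Over the whole array 52 probe sets were higher and 84 lower in *Crtc1*-/- mice after Benjamini-Hochberg correction, 0.302% of those tested, and the groups did not overlap for 2.08%. Of genes known as CREB targets, 3 chosen after their values were seen were lower in the fit over genes. *Crem*, *Nr4a1* and *Nr4a3* had fold changes of −0.74, −0.99 and −0.94 in log2 units (adjusted p = 6.66e-04, 0.00954 and 0.00485 from limma, n = 5 each). Levels of transcripts in whole cortex cannot tell fewer cells of a type from less RNA per cell, which holds for every gene below.

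No member was called different. Of the 22 probe sets 0 passed the adjusted threshold of 0.05 in limma, 0 had an unadjusted p under 0.05 (7.19% of all probe sets did), and in 0 did the *Crtc1*-/- values lie apart from the WT values. Log2 fold changes of the 22 ran from −0.12 to 0.22 with a median of −0.01, 10 above 0 and 12 below, where the median of all probe sets was −0.000211. Their standard errors ran from 0.0429 to 0.127 on the log2 scale. A p above the threshold does not show equal levels, so the interval of each difference is given with it.

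**Figure D1:**
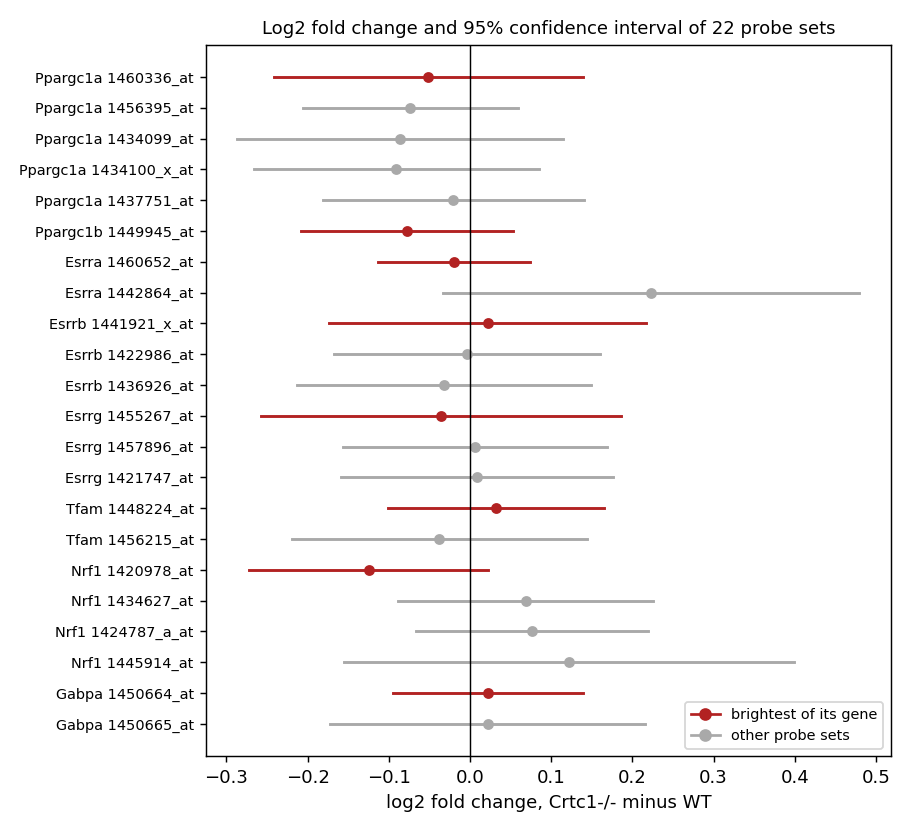
The x axis gives the log2 fold change (*Crtc1*-/- minus WT) of the 22 probe sets (rows). Points stand for the estimate and lines for its 95% confidence interval from limma, n = 5 mice per genotype. Red marks the brightest probe set of each gene. Every interval crosses 0, and the edge farthest from 0 is 0.48, for *Esrra* 1442864_at.

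The promoter window of *Ppargc1a* holds the CREB core letters shown above, as do 20.8% of all windows. This coactivator gene did not differ between the genotypes beyond the spread of the mice. Its brightest probe set, 1460336_at, read 9.41, 9.46, 9.15, 9.34 and 9.52 in *Crtc1*-/- mice, against 9.19, 9.35, 9.56, 9.49 and 9.55 in WT mice. The ranges overlapped almost whole, with the lowest *Crtc1*-/- mouse next to the lowest WT mouse. The means were 9.38 ± 0.14 in *Crtc1*-/- cortex and 9.43 ± 0.16 in WT cortex (SD, n = 5 each), a log2 fold change of −0.05 (SE 0.0871, adjusted p = 0.955 from limma, two-sided exact permutation p = 0.564). As a ratio this was 0.965, with a 95% confidence interval from 0.846 to 1.10. Without *Crtc1*-/- replicate 3, the lowest of its group, the log2 fold change was 0.01.

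The other 4 probe sets of *Ppargc1a* all lay slightly lower in *Crtc1*-/- mice, none past the test. Probe set 1456395_at read 8.46, 8.50, 8.32, 8.42 and 8.57 in *Crtc1*-/- mice, against 8.57, 8.36, 8.58, 8.55 and 8.57 in WT mice. There 4 WT mice sat close together above the *Crtc1*-/- median and WT replicate 2 sat well below them. The log2 fold change was −0.07, with an interval from 0.867 to 1.04 as a ratio (adjusted p = 0.887 from limma). For 1434099_at and 1434100_x_at it was −0.09 and −0.09, with intervals from 0.820 to 1.08 and from 0.832 to 1.06. For 1437751_at it was −0.02, with an interval from 0.882 to 1.10. All 5 share 1 gene and the same 10 RNA samples, so their common sign is not 5 observations.

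These 5 probe sets also moved together in part from mouse to mouse within a genotype. After the genotype mean was taken off, 1434099_at and 1434100_x_at correlated at r = 0.93 (rho = 0.94) over the 10 arrays. Whether these read separate stretches of the transcript is not known here. The lowest pair was 1460336_at with 1434100_x_at, at r = 0.35 (rho = 0.28). The brightest probe set, 1460336_at, correlated with the others at r from 0.35 to 0.62. *Crtc1*-/- replicates 2 and 5 and WT replicate 5 were above their genotype mean in all 5 probe sets. *Crtc1*-/- replicates 3 and 4 and WT replicate 2 were below it in all 5. Between the mice of 1 genotype *Ppargc1a* thus varied more than the genotypes differed.

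**Figure D2:**
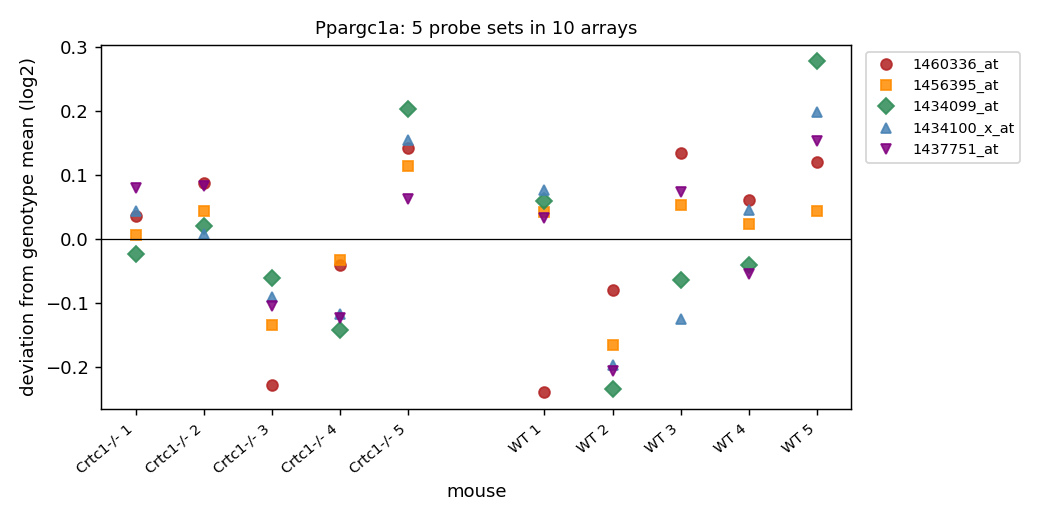
Deviation of the 5 *Ppargc1a* probe sets (colours and shapes) from the mean of their genotype, in log2 units (y axis), in each *Crtc1*-/- and WT mouse (x axis). *Crtc1*-/- replicates 2 and 5 and WT replicate 5 sit above 0 for every probe set. *Crtc1*-/- replicates 3 and 4 and WT replicate 2 sit below 0 for every probe set. In WT replicate 1, 1460336_at stands apart from the other probe sets.

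*Ppargc1b*, the related coactivator, is read by 1 probe set, 1449945_at. It read 8.57, 8.68, 8.59, 8.69 and 8.53 in *Crtc1*-/- mice, against 8.82, 8.56, 8.77, 8.65 and 8.64 in WT mice. The highest values, 8.82 and 8.77, were both in WT mice, and the other values were mixed. The means were 8.61 ± 0.07 in *Crtc1*-/- cortex and 8.69 ± 0.11 in WT cortex (SD, n = 5 each), a log2 fold change of −0.08 (SE 0.0596, adjusted p = 0.873 from limma). The interval of the ratio ran from 0.866 to 1.04.

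Of the receptors that carry PGC-1 to DNA, *Esrra* had the narrowest interval of all members. ERRα is the receptor most closely tied to PGC-1α at genes of the respiratory chain. The *Esrra* promoter window holds the NRF1 core letters shown above, as do 6.25% of all windows. Probe set 1460652_at read 8.65, 8.69, 8.63, 8.58 and 8.67 in *Crtc1*-/- mice, against 8.64, 8.65, 8.66, 8.64 and 8.74 in WT mice. All mice but WT replicate 5 lay within a narrow band shared by both genotypes. The log2 fold change was −0.02 (SE 0.0429, adjusted p = 0.968 from limma), with an interval of the ratio from 0.924 to 1.05. A second, dimmer *Esrra* probe set, 1442864_at, gave the largest difference among the 22 in size. It read 5.60, 5.73, 5.79, 5.63 and 5.64 in *Crtc1*-/- mice, against 5.70, 5.49, 5.76, 5.21 and 5.11 in WT mice. The *Crtc1*-/- mice lay within a narrow band and the WT mice were spread wide, with WT replicates 4 and 5 the lowest. The log2 fold change was 0.22 (SE 0.117, interval of the ratio 0.977 to 1.39, adjusted p = 0.767 from limma, exact permutation p = 0.167). It was 0.14 without WT replicate 5 and 0.30 without WT replicate 3, and was not called in either fit. The 2 probe sets had opposite signs and did not track each other over the 10 arrays (r = −0.36, rho = −0.20).

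*Esrrg*, whose product ERRγ is the estrogen-related receptor best known from neurons, heart and other tissues of high energy use, varied widely from mouse to mouse. Probe set 1455267_at read 8.46, 8.25, 8.25, 7.98 and 8.29 in *Crtc1*-/- mice, against 8.24, 8.01, 8.26, 8.37 and 8.53 in WT mice. Each genotype held 1 mouse near 8.0 and 1 near 8.5, so the ranges coincided. The means were 8.25 ± 0.17 in *Crtc1*-/- cortex and 8.28 ± 0.19 in WT cortex (SD, n = 5 each), a log2 fold change of −0.04 (SE 0.101, adjusted p = 0.975 from limma) with an interval of the ratio from 0.837 to 1.14. The other 2 probe sets, 1457896_at and 1421747_at, had means above only 27.0% and 21.1% of all probe sets and fold changes of 0.01 and 0.01. No detection calls were used, so whether they read any transcript is not known here.

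*Esrrb*, which encodes ERRβ, known best from stem cells, retina and inner ear, read 6.31, 6.45, 6.70, 6.28 and 6.58 in *Crtc1*-/- mice on 1441921_x_at, against 6.54, 6.58, 6.28, 6.47 and 6.33 in WT mice. The genotypes covered nearly the same range. The log2 fold change was 0.02 (SE 0.0893, adjusted p = 0.983 from limma), with an interval of the ratio from 0.887 to 1.16. The ending of this name marks probes that may bind other transcripts. The other 2 *Esrrb* probe sets were dimmer, with means above 32.4% and 28.3% of all, and log2 fold changes of −0.00 and −0.03.

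*Nrf1* and *Gabpa* encode the factors that act on nuclear respiratory genes, and the probe sets of *Nrf1* disagreed in sign. *Nrf1* 1420978_at read 5.52, 5.61, 5.39, 5.52 and 5.28 in *Crtc1*-/- mice, against 5.73, 5.50, 5.58, 5.60 and 5.54 in WT mice. The 2 lowest values were in *Crtc1*-/- mice and the highest in a WT mouse, with the rest mixed. The means were 5.47 ± 0.13 in *Crtc1*-/- cortex and 5.59 ± 0.09 in WT cortex (SD, n = 5 each), a log2 fold change of −0.12 (SE 0.0675, interval of the ratio 0.828 to 1.02, adjusted p = 0.777 from limma, exact permutation p = 0.135). The other 3 *Nrf1* probe sets pointed the other way. Their log2 fold changes were 0.07 for 1434627_at, 0.08 for 1424787_a_at and 0.12 for 1445914_at, none past the test (intervals of the ratio 0.940 to 1.17, 0.955 to 1.16 and 0.898 to 1.32). The value of 1420978_at minus the mean of the other 3 was 0.195 ± 0.122 log2 units in *Crtc1*-/- mice, against 0.409 ± 0.163 in WT mice (SD, n = 5 each), a difference of −0.21. The exact permutation p was 0.0318, and 0.0635 after correction over this contrast and the like one of *Esrra*. Both contrasts were chosen after their values were seen, so this p supports nothing. All 4 means lay near the middle of the array's probe sets.

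*Gabpa* 1450664_at read 7.76, 7.88, 7.86, 7.87 and 8.02 in *Crtc1*-/- mice, against 7.79, 7.84, 7.89, 7.84 and 7.92 in WT mice. The WT values lay inside the range of the *Crtc1*-/- values. The log2 fold change was 0.02 (SE 0.0536, adjusted p = 0.970 from limma), with an interval of the ratio from 0.936 to 1.10. The second probe set, 1450665_at, also had a log2 fold change of 0.02, and over the 10 arrays the pair correlated at r = 0.58 (rho = 0.59).

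*Tfam* is described as a target of both factors, and its promoter window held the ETS site but no match to the NRF1 core. This gene, the member nearest to mitochondrial DNA, read 8.44, 8.35, 8.31, 8.38 and 8.51 on 1448224_at in *Crtc1*-/- mice, against 8.23, 8.33, 8.32, 8.47 and 8.47 in WT mice. The lowest value was in a WT mouse and the highest in a *Crtc1*-/- mouse, with the others mixed. The means were 8.40 ± 0.08 in *Crtc1*-/- cortex and 8.36 ± 0.10 in WT cortex (SD, n = 5 each), a log2 fold change of 0.03 (SE 0.0606, interval of the ratio 0.933 to 1.12, adjusted p = 0.961 from limma). Probe set 1456215_at gave −0.04 (interval of the ratio 0.859 to 1.11). Over the brightest probe set of each gene, the 95% intervals of the 8 members all lay between 0.828, for *Nrf1*, and 1.16, for *Esrrb*, as ratios of *Crtc1*-/- to WT.

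**Figure D3:**
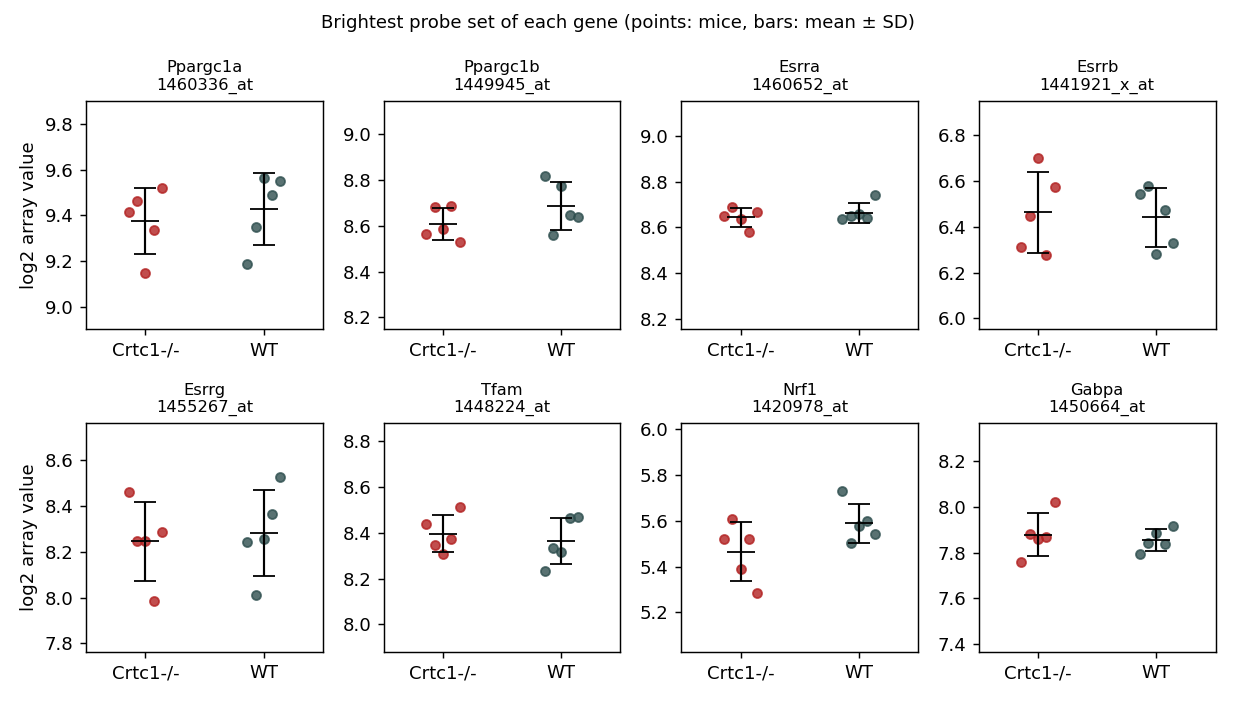
Log2 array values (y axis, each panel spanning 1 unit) of the brightest probe set of each of the 8 genes in *Crtc1*-/- mice (left of each panel, red) and WT mice (right, dark). Points are mice and bars are mean ± SD, n = 5 per genotype. The points of both genotypes overlap in every panel, and *Esrrg* and *Ppargc1a* are spread wider than *Esrra*.

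Between the members, deviations of the brightest probe sets from the genotype means correlated over the 10 arrays from r = −0.65, for *Nrf1* with *Gabpa*, to r = 0.74, for *Ppargc1b* with *Nrf1*. *Ppargc1a* went with *Tfam* at r = 0.73 and with *Ppargc1b* at r = −0.21. All points share the same 10 hybridizations, and these values are given as a description.

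The other genes of the pathway were taken from 6 lists, and of their 187 measured genes 0 passed limma's test over all genes, where 0.764% of 18193 genes did. The groups did not overlap for 7 of the 187, or 3.74%, close to the 3.14% of all genes. The median log2 fold change of all genes was −0.00300, and 51.6% of them lay below 0.

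Among partners and upstream regulators of PGC-1, 38 of 40 listed genes were measured, 17 above 0 and 21 below, with a median of −0.02. The smallest p belonged to *Mef2d*, a factor that drives *Ppargc1a* in muscle, at 10.20, 10.12, 10.20, 10.12 and 10.10 in *Crtc1*-/- mice against 10.35, 10.31, 10.27, 10.24 and 10.26 in WT mice. Each *Crtc1*-/- value was under each WT value, but the log2 fold change of −0.14 did not pass the correction (adjusted p = 0.206 from limma). *Prkab2* and *Stk11*, a subunit and an activating kinase of AMP-activated protein kinase, had −0.12 and −0.10, and *Pparg*, the receptor with which PGC-1α was first identified, had 0.13 (adjusted p = 0.341, 0.50 and 0.457 from limma). Of factors that copy and transcribe mitochondrial DNA, 19 of 19 were measured, 4 above 0 and 15 below, with a median of −0.04. The named genes here were the nuclease *Mgme1* at −0.10, the elongation factor *Tefm* at −0.14, the protease *Lonp1* at −0.08 and the RNA-stabilizing *Lrpprc* at −0.10.

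For nuclear subunits of oxidative phosphorylation, which PGC-1 acts on through the ERRs, NRF1 and GABP, 70 of 74 listed genes were measured, and 59 of them, or 84.3%, lay below 0, with a median of −0.03. None was called. Of the 70, 5 did not overlap between genotypes (*Ndufa1*, *Ndufb9*, *Cox4i1*, *Atp5d* and *Atp5j2*), against 571 of 18193, or 3.14%, of all genes. These were 5 of the 7 genes that did not overlap over all 6 lists. *Atp5d*, a subunit of ATP synthase, read 11.99, 12.00, 12.01, 12.03 and 11.99 in *Crtc1*-/- mice, against 12.14, 12.12, 12.09, 12.07 and 12.07 in WT mice, a log2 fold change of −0.10 (adjusted p = 0.356 from limma). *Atp5g1*, *Uqcr11* and *Ndufv3*, subunits of ATP synthase, complex III and complex I, had −0.12, −0.11 and −0.10 (adjusted p = 0.341, 0.40 and 0.433 from limma). Subunits of the same complexes are not independent of one another, so the share below 0 and the count not overlapping are given without a test. Under every alternative run, the list's median stayed between −0.04 and −0.02.

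Genes of mitochondrial fusion, fission, import and removal were measured for 22 of 24, 6 above 0 and 16 below, with a median of −0.02. *Hspa9*, *Timm17a*, *Vdac1* and *Fis1* had −0.06, −0.05, −0.06 and −0.05, and *Hspa9*, a chaperone of the import motor, did not overlap between genotypes. Metabolic targets of PGC-1 and the ERRs were measured for 34 of 38, 18 above 0 and 16 below, with a median of 0.00. Of these *Ucp3*, a carrier of the inner membrane, had 0.17 (adjusted p = 0.193 from limma), at 5.53, 5.60, 5.53, 5.50 and 5.54 in *Crtc1*-/- mice against 5.36, 5.38, 5.31, 5.30 and 5.52 in WT mice. WT replicate 5 alone reached the *Crtc1*-/- range. *Fndc5*, *Pdk4* and *Cpt1a*, a membrane protein that PGC-1α induces in muscle and enzymes of fuel choice and fat oxidation, had −0.14, 0.12 and 0.14 (adjusted p = 0.349, 0.506 and 0.540 from limma). The 4 genes known to need PGC-1α in cortical neurons lay above 0: *Nefh*, the heavy neurofilament, at 0.10, *Pvalb* at 0.10, the synaptotagmin *Syt2* at 0.05 and *Cplx1*, a complexin of transmitter release, at 0.02, none past the test. Their median of 0.08 was −0.14 with the hippocampal marker mean as a covariate, and between 0.03 and 0.13 with 1 array left out.

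**Figure D4:**
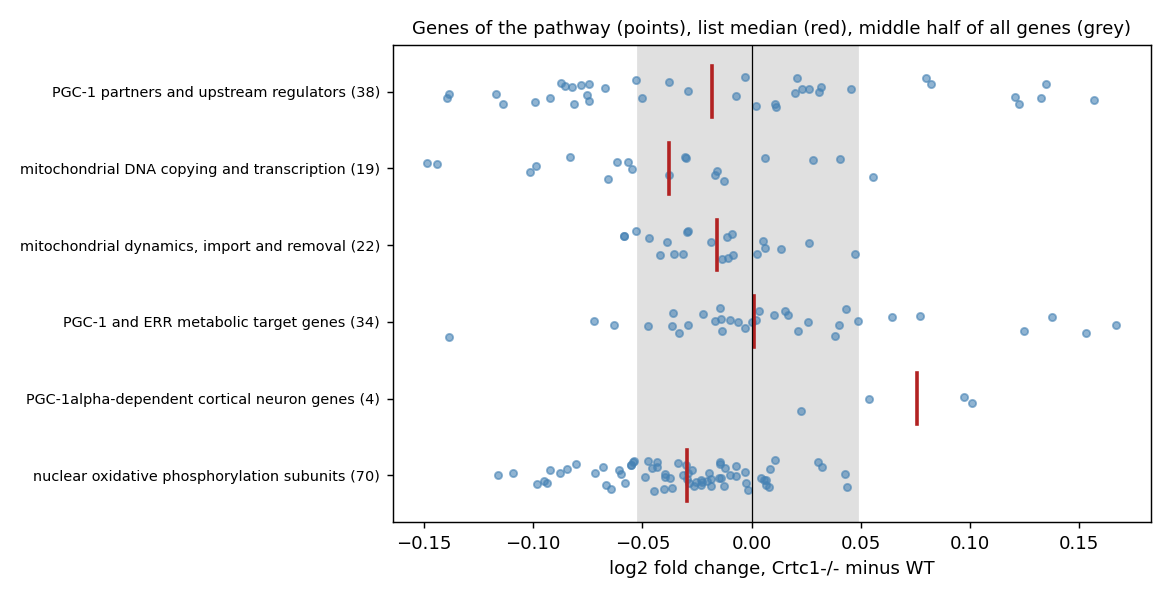
The x axis gives the log2 fold change (*Crtc1*-/- minus WT) of each measured gene (points) in the 6 lists (rows, with the number of genes), the list median (red line) and the range from the lower to the upper quartile of all 18193 genes (grey band). The oxidative phosphorylation subunits lie mostly below 0, with 59 of 70, and all 4 neuron genes above 0.

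Markers of cell types were compared for the same reason. The mean of 9 parvalbumin interneuron markers, the cells in which PGC-1α is known to be abundant, averaged 9.34 ± 0.05 in *Crtc1*-/- cortex and 9.33 ± 0.10 in WT cortex (SD, n = 5 each, exact permutation p = 0.810). Of these 9 markers 4 lay above 0 and 5 below, with log2 fold changes from −0.15 to 0.15. The mean of 5 excitatory cortical neuron markers, of which 5 were below 0, fell by 0.11 on the log2 scale and lay between 10.21 and 10.32 in *Crtc1*-/- mice, against 10.35 to 10.40 in WT mice (exact permutation p = 0.00794, the smallest the design allows, 0.0357 after correction over 9 lists). The mean of 11 hippocampal markers fell by 0.16 and lay between 5.30 and 5.49 in *Crtc1*-/- mice, against 5.50 to 5.67 in WT mice, with the same p-values. Of these 11, *Fibcd1* and *Fam163b* passed limma's test at −0.41 and −0.28, and 7 in all lay below 0. The mean of 11 oligodendrocyte markers lay between 10.23 and 10.55 in *Crtc1*-/- mice and between 9.97 and 10.30 in WT mice, a difference of 0.20 (exact permutation p = 0.0476, 0.107 after correction and 0.0556 uncorrected with each array centred on its median), with 11 of 11 above 0. The mean of 6 muscle markers lay between 5.52 and 5.63 in *Crtc1*-/- mice and between 5.41 and 5.53 in WT mice, a difference of 0.12 (exact permutation p = 0.0238, 0.0714 after correction), with 4 of 6 above 0. Bright neuron and astrocyte markers fit the labelled tissue.

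Of the 9 marker means, only those of excitatory neurons and hippocampus passed the correction. The marker lists were chosen with earlier results of these data known, so these p-values do not test lists fixed beforehand. The means of hippocampus and oligodendrocytes were also used as covariates in fits of the members. The excitatory neuron and muscle means were not, and their part in the results was not tested. With the hippocampal mean in the fit, the log2 fold change of *Esrrg* 1455267_at was −0.40 (unadjusted p = 0.00218, adjusted p = 0.611 from limma), and those of the *Ppargc1a* probe sets lay between −0.30 and −0.11, none called. The hippocampal means of the genotypes do not overlap, so marker level and genotype cannot be told apart in that fit. The ratio of 3′ to 5′ control probe sets of *Gapdh*, a measure of RNA integrity, lay between 0.0273 and 0.119 in *Crtc1*-/- mice and between 0.0851 and 0.112 in WT mice on the log2 scale (exact permutation p = 0.730).

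Genes that followed *Ppargc1a* and *Esrrg* from mouse to mouse were ranked by r over the 10 arrays among 18185 genes, after the genotype means were taken off. Closest to *Ppargc1a* 1460336_at were *Zfp292* (r = 0.97), *Rnf214* (0.96), *Gatad2b* (0.96), *Myo9a* (0.96) and *Gprin3* (0.95). The likeness was weaker with the other 4 *Ppargc1a* probe sets, from 0.22 to 0.77 over these 5 genes. Closest to *Esrrg* 1455267_at were *Cds1* (r = 0.94), *Atad1* (0.94), *Cltc* (0.94), *Pvalb* (0.93) and *Plxdc1* (0.93).

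*Pvalb*, which encodes the calcium-binding protein parvalbumin, was thus 1 of the 5 genes most like *Esrrg*, and is also 1 of the listed neuron genes. It read 10.67, 10.46, 10.53, 10.35 and 10.64 in *Crtc1*-/- mice, against 10.45, 10.20, 10.42, 10.42 and 10.66 in WT mice. In both genotypes the mouse with the least *Esrrg* had the least *Pvalb* and the mouse with the most *Esrrg* the most *Pvalb*. The rank correlation was 0.73, and r was 0.88 without the 2 mice farthest from the median of *Esrrg*. The other neuron genes also went with *Esrrg*, *Syt2* at r = 0.80, *Nefh* at 0.69 and *Cplx1* at 0.69. *Pvalb* went with *Ppargc1a* 1460336_at at r = 0.34 and with the brightest probe set of *Esrra* at r = 0.65. The *Esrra* probe set also went with *Esrrg* at 0.67, so the likeness to *Pvalb* was not limited to *Esrrg* among the receptors. With the dim *Esrrg* probe sets, r for *Pvalb* was −0.05 and −0.11. These values come from 10 arrays that share hybridizations across genes and from a ranking of all genes, and are given as a description.

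**Figure D5:**
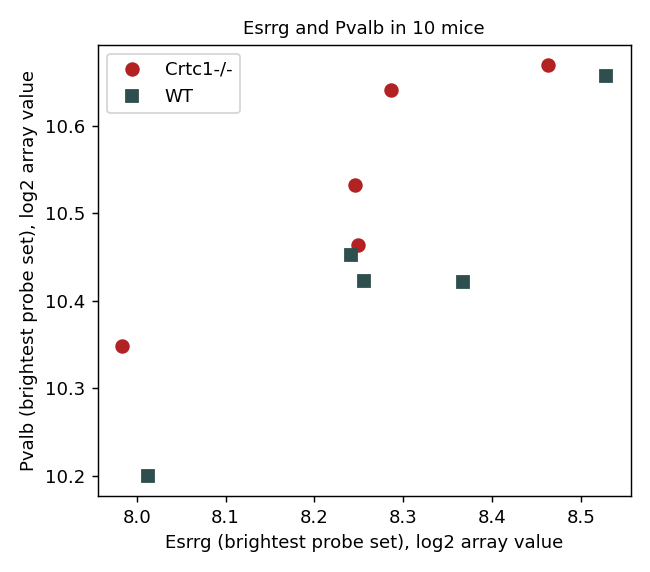
Log2 array value of *Esrrg* 1455267_at (x axis) against that of *Pvalb* (y axis) in 5 *Crtc1*-/- mice (red circles) and 5 WT mice (dark squares). In each genotype the mouse with the most *Esrrg* also had the most *Pvalb*, and the lowest point, at 8.01 and 10.20, is a WT mouse.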

How the data were processed

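Cortical RNA of 5 *Crtc1*-/- and 5 WT female mice was hybridized to 1 Affymetrix array each. The authors made biotinylated cRNA with a 3′ IVT kit, screened the arrays for quality and deposited the summarized log2 values; the method of background correction, normalization and summarization was not given in the sources used here. The deposited log2 values lay between 2.14 and 13.9 over the 45037 probe sets that remained after 64 controls of 45101 were left out. Groups were taken from the sample labels. Annotation named 1 gene for 34945 probe sets, several for 932 and none for 9160, and 34741 matched RefSeq gene identifiers of GRCm38.p6, the build of the promoter windows.

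Differences were fitted as *Crtc1*-/- minus WT by limma 3.58.1 (lmFit, eBayes; R 4.3.3), and p-values were adjusted by Benjamini-Hochberg across the array's probe sets or, with the brightest probe set of each gene, across 18193 genes, at a threshold of 0.05. Confidence intervals are at 95%. Single values were compared with two-sided exact permutation tests, and the procedure was tested on simulated data. The number of arrays limits the precision. The members and the lists (PGC-1 partners, mitochondrial DNA factors, mitochondrial dynamics and import, metabolic targets, PGC-1α-dependent neuron genes, oxidative phosphorylation, and markers of 9 cell types or regions) were chosen with earlier results of these data known. Named are *Crtc1*, the members, up to 4 genes of each list with the smallest p, and the 5 genes most like *Ppargc1a* and *Esrrg*; *Crem*, *Nr4a1*, *Nr4a3*, *Fibcd1*, *Fam163b* and genes named for not overlapping stand outside this rule and were chosen after their values were seen. Alternatives were quantile normalization, median centring, filters on dim (lowest 40%) and cross-hybridizing probe sets, other variance priors, array weights, a replicate block, marker means as covariates, probe sets averaged per gene and leaving out each array.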

Additional observations from a re-analysis of the deposited data

Results flagged for a closer look

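In 3 of 134 groups of 5 mice 1 mouse stood far from the other 4 by Dixon's criterion, which chance alone meets in about 1 of 20 groups. For *Ppargc1a* 1456395_at, WT replicate 2 read 8.362 where the other WT mice read 8.55 to 8.58, and it was low in the other *Ppargc1a* probe sets too. For *Esrra* 1460652_at, WT replicate 5 read 8.74 where the others read 8.636 to 8.659. The parvalbumin interneuron marker mean of *Crtc1*-/- replicate 1 was 9.427 where the other *Crtc1*-/- mice were at 9.305 to 9.339, and this mouse had the highest *Esrrg* and *Pvalb* values of its genotype.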

How the results depend on the processing

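No member probe set was called under any of the alternatives, in 434 refits of single probe sets (lowest adjusted p = 0.487 from limma), and 34 of these changed sign, all of differences that had not passed the test. Signs turned for *Esrrb* 1422986_at with array weights (0.0192), for *Esrrg* 1457896_at with quantile normalization (−0.0113) and with the hippocampal marker mean as covariate (−0.0402), for *Esrrg* 1421747_at with quantile normalization (−0.00385) and for *Nrf1* 1445914_at with the hippocampal covariate (−0.107). With probe sets averaged per gene, *Esrra* was at 0.102, *Esrrb* at −0.00459, *Tfam* at −0.0028 and *Nrf1* at 0.0357. With 1 array left out, values of the probe sets that changed sign ranged from −0.111 to 0.00573 for *Ppargc1a* 1460336_at and −0.0721 to 0.0177 for 1437751_at, from −0.0374 to 0.0684, −0.0651 to 0.036 and −0.0843 to 0.0212 for *Esrrb* 1441921_x_at, 1422986_at and 1436926_at, from −0.103 to 0.0297, −0.0481 to 0.0407 and −0.0509 to 0.0496 for *Esrrg* 1455267_at, 1457896_at and 1421747_at, from −0.000523 to 0.0584 and −0.0799 to 0.0319 for *Tfam* 1448224_at and 1456215_at, and from −0.0142 to 0.0521 and −0.0169 to 0.0885 for *Gabpa* 1450664_at and 1450665_at. Only 1 of 5 WT arrays was most like the *Crtc1*-/- array that shares its number, so no pairing by replicate number was seen. A count over so few arrays cannot exclude a pairing. With a replicate block, *Ppargc1a* 1460336_at was at −0.0511 (adjusted p = 0.972 from limma), and over the whole array 12 probe sets were higher and 28 lower. Those counts were 85 and 154 with a trended, robust variance prior, 25 and 50 without moderation, 9 and 21 with the oligodendrocyte covariate, 5 and 8 with the hippocampal covariate, and 24 to 40 and 45 to 77 with 1 array left out. The median of the 4 neuron genes was −0.139 with the hippocampal covariate. That of the metabolic targets lay between −0.00321 and 0.0255 over the processing alternatives and between −0.00913 and 0.0109 with 1 array left out. The oligodendrocyte marker difference was 0.199 after median centring (exact permutation p = 0.0556) and 0.152 to 0.239 with 1 array left out, where 6 of 10 fits missed the threshold. The causes were not tested. With 5 arrays per genotype, differences inside the stated intervals are not excluded for the members.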
